A study of Acipenser ruthenus with 15 samples.

Results

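The comparison is between the animal cap of the sterlet egg, section A, and the section next to it toward the vegetal side, section B. It takes 6 of the 15 libraries of the study, chosen by their labels alone: 3 of section A and 3 of section B, one of each from eggs 10, 18 and 20. The sterlet, Acipenser ruthenus, is a small sturgeon, and the labels call the material oocytes of stage 1, with no genotype, treatment or age given. Each egg was frozen in an embedding medium, cut on a cryostat and divided into 5 sections, A at the animal pole to E at the vegetal pole, and total RNA depleted of ribosomal RNA gave 1 strand-specific library per section. A section is a slice by position and no cell type, so A holds both the cytoplasm around the animal pole and its surface. Nothing in the sources used here ties the eggs to females or to separate spawnings, so p-values speak for these 3 eggs only. They measure the spread that section and egg leave unexplained over the 15 libraries.

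The question is which RNA is confined to the outermost animal part of the egg. In fish and amphibian oocytes the nucleus lies toward the animal pole, and many maternal mRNAs are stored unevenly along the animal-vegetal axis. Known vegetal mRNAs of the frog Xenopus are anchored in the vegetal cortex and mark germ plasm and endoderm, while animal mRNAs there are mostly enriched rather than sharply bounded. Cleavage later cuts this store into cells that receive different maternal RNA. The files list 42878 assembled transcripts by assembly ID, and the files do not pair those IDs with gene names; 0 of them matched the annotated sterlet genes used here. Roles of single transcripts are therefore not given, gene lists and markers of the egg, of follicle cells or of blood could not be applied, and at most 2 IDs per direction are named.

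The 6 libraries held 6617562 to 11545215 counts, and 29102 transcripts were tested. Levels are TMM-scaled CPM, the counts of a transcript over a library total that is scaled so that the bulk of transcripts is equal between libraries. They state a level relative to the other transcripts of a library, so a lower share of the RNA and a smaller amount of it cannot be told apart. A transcript was called when its adjusted p was under 0.05 in edgeR's quasi-likelihood test with the egg as a block.

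Most transcripts did not separate the animal cap from its neighbour. The fitted change was within 2-fold for 27865 of the 29102 (95.7%), and 986 transcripts were called (3.39%). Of these, 772 were higher in A (2.65% of those tested) and 214 higher in B (0.735%), and each of the 986 had the same direction in 3 of 3 eggs, against 32.4% of all tested. The median level in B was 53.6% of that in A for transcripts called higher in A (quartiles 40.5% and 65.2%). For those called higher in B, the median level in A was 44.7% of that in B (quartiles 33.4% and 59.3%). The levels of the 2 sections did not overlap for 703 of the 772 and for 197 of the 214, a direction and separation that the calls on the same libraries favour. Of all 29102 tested, 1912 (6.57%) did not overlap with A higher and 1406 (4.83%) with B higher. Dropping the egg term left 391 calls, 299 higher in A and 92 higher in B. Without egg 18 these were 347 and 111, and 307 and 112 when egg 20 was left out. The 772 became 491, 514, 502 and 499 on leaving out A of egg 18, A of egg 20, B of egg 18 and B of egg 20 in turn, and the 214 became 139 in the last case.

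**Figure D1:**
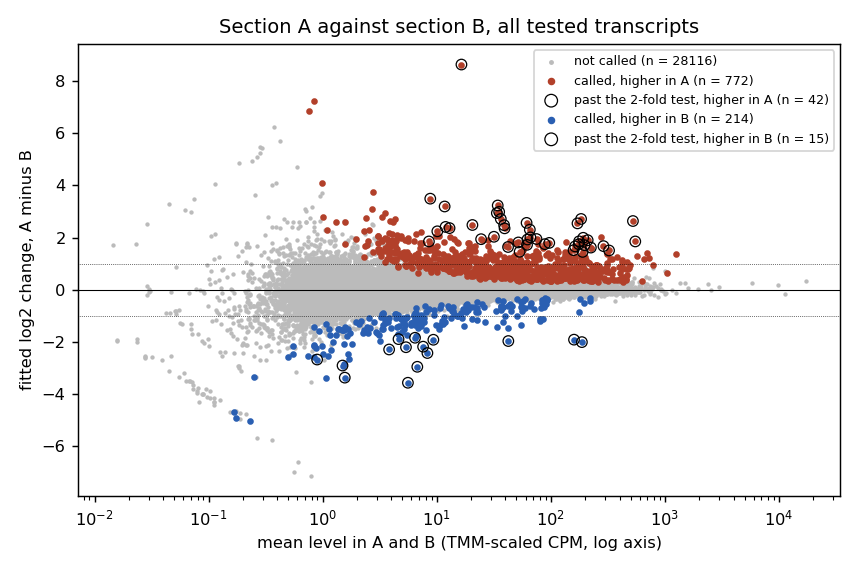
Each point is 1 of the 29102 tested transcripts, with its mean level in sections A and B in CPM on a log axis and its fitted log2 change, A minus B, on the vertical axis. Of the coloured points, 772 lie above 0 (higher in A) and 214 below it (higher in B), and the ringed points, 42 above and 15 below, passed the test for a difference larger than 2-fold.

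The balance of the 2 directions depended on how libraries are scaled. With TMM, 78.3% of the calls were higher in A. This share was 69.6% of 899 calls with total counts only, 54.2% of 526 with the spike-in and 9.17% of 5789 with the deposited factor, the number by which the authors divided each library. These scalings shift the median log2 change of all transcripts, A minus B, from -0.01 with TMM to -0.07, -0.21 and -0.30 in turn. All changes below are relative to the bulk of transcripts.

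**Figure D2:**
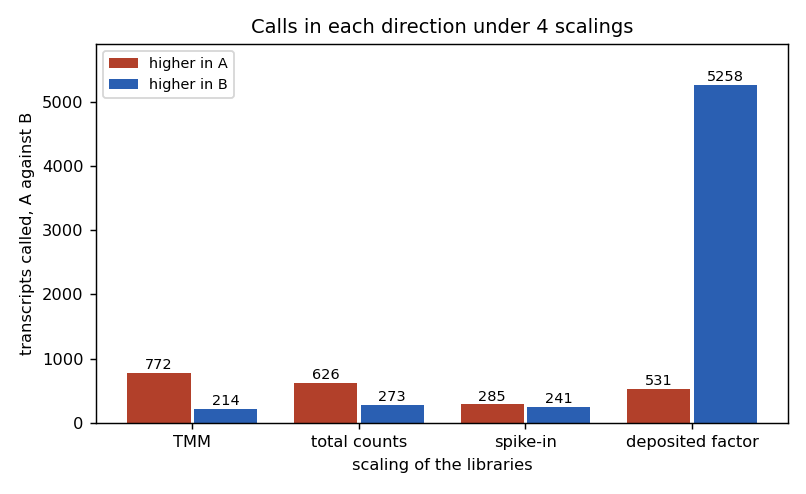
Bars give the number of transcripts called between sections A and B (vertical axis, from 0), in red those higher in A and in blue those higher in B, under 4 scalings of the libraries. With TMM 772 stood against 214, with total counts 626 against 273, with the spike-in 285 against 241 and with the deposited factor 531 against 5258.

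Confinement to the animal cap was rare. Of the 772 transcripts higher in A, 174 had at least 50% of their level, summed over the means of the 5 sections, in section A. Only 11 had at least 80%, and 1 had at least 95%. The median share in A was 37.8% for the 772 and 19.8% for all tested, of which 250 had at least 50%. The 11 came from 9 assembly components, and their level in B was 0.239 to 17.7% of that in A, with a median of 12.5%. Of these, 7 had a mean of at least 10 CPM in A, 2 had no count in C, D and E, and 0 were without counts in B. These shares use the same A libraries as the calls and are a description. They weight the 5 sections equally whatever RNA each held, so they are not shares of the RNA of the egg.

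The transcript nearest to confinement was trinitytrinLocGG_86527c0g1t1. In section A it had 313 counts in egg 10, 236 in egg 18 and 425 in egg 20. In section B it had 1, 0 and 1. Sections C, D and E held 0 counts in each egg. The A libraries thus stood far above the B libraries with no overlap. Its level was 32.8 ± 5.54 CPM in A (SD, n = 3) and 0.0785 ± 0.0718 CPM in B, a ratio of 418 with a 95% interval of 116 to 3450 (exact Poisson, from the 2 counts in B). The fitted log2 change was 8.64, with an adjusted p of 5.31e-07 in edgeR's quasi-likelihood test with Benjamini-Hochberg adjustment. The SE derived from that test, 0.38, is too small for 2 counts in B. The wider interval of the ratio, 116 to 3450, is the better measure of its uncertainty. DESeq2 gave a log2 change of 8.92 with an adjusted p of 0.434, so the call, but not the size of the change, depended on the tool.

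The most abundant transcript at least 2-fold higher in A was trinitytrinLocDN55105c0g1t4. It stood at 1440, 2080 and 1910 CPM in section A of eggs 10, 18 and 20, and at 653, 693 and 748 CPM in section B. Each A library was above each B library. Its log2 change was 1.36 ± 0.09 (SE; adjusted p 4.19e-07, edgeR with Benjamini-Hochberg adjustment). It missed the test for more than 2-fold (adjusted p 0.0531, glmTreat in edgeR). Its level in C, D and E was 319 ± 47.9, 269 ± 16.9 and 265 ± 27.2 CPM, and 53.8% of its summed level was in A.

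Transcripts higher in B were mostly scarce in the animal cap rather than concentrated in B. trinitytrinLocDN50594c0g2t1 had 7, 9 and 9 counts in section A of eggs 10, 18 and 20, and 95, 135 and 76 in section B. Its level was 0.892 ± 0.33 CPM in A and 10.3 ± 1.13 CPM in B, an 11.5-fold ratio with a 95% interval of 7.81 to 17.8 (exact Poisson, from the 25 counts in A). The log2 change was -3.56 ± 0.22 (SE; adjusted p 1.48e-07, edgeR with Benjamini-Hochberg adjustment). The groups lay apart in every egg, yet B itself was far below C, at 117 ± 14.9 CPM.

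The most abundant of this direction was trinitytrinLocGG_43171c0g1t1, with 75.1, 72.7 and 74 CPM in section A and 298, 347 and 256 CPM in section B of the 3 eggs. The A libraries were nearly equal and the B libraries were all higher. The log2 change was -2 ± 0.12 (SE; adjusted p 1.36e-07, edgeR with Benjamini-Hochberg adjustment). The mean was 300 ± 45.8 CPM for B and 900 ± 180 for C, and it was 938 ± 140 for D and 1350 ± 206 for E (SD, n = 3).

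**Figure D3:**
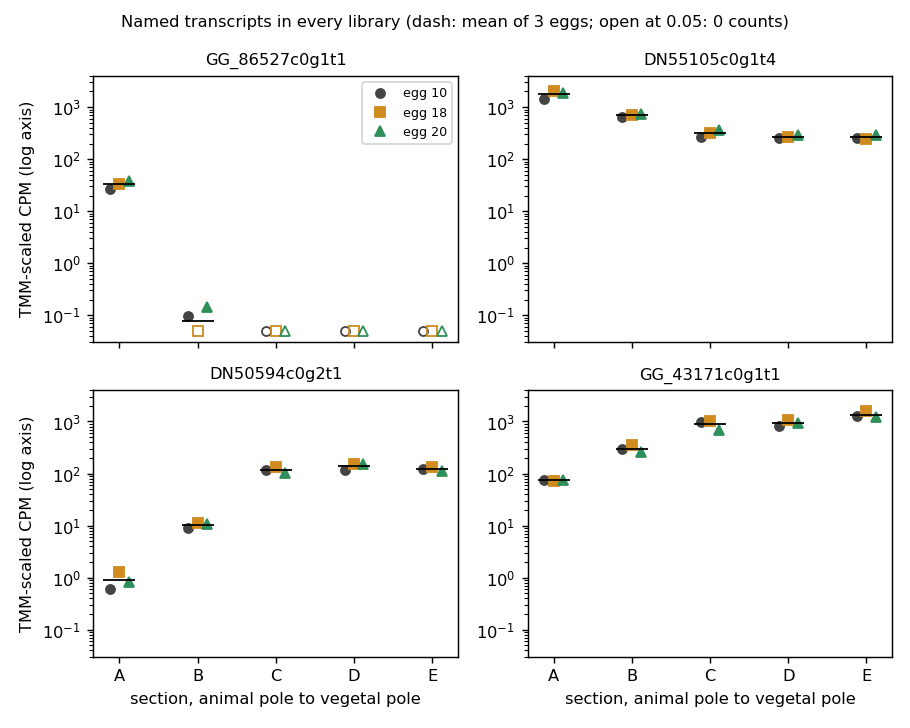
Each panel shows 1 named transcript in all 15 libraries, with section on the horizontal axis and TMM-scaled CPM on a log vertical axis; the dash is the mean of 3 eggs and open symbols at 0.05 stand for 0 counts. GG_86527c0g1t1 is at 32.8 CPM in A and at or near 0 elsewhere, DN55105c0g1t4 falls from 1810 to 265 CPM, and DN50594c0g2t1 and GG_43171c0g1t1 start at 0.892 and 74 CPM in A and reach 122 and 1350 CPM in E.

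Only part of the called differences exceeded 2-fold. A fitted change of at least 2-fold was seen for 332 of the 772 higher in A and for 132 of the 214 higher in B. At least 4-fold changes numbered 49 and 33, and at least 8-fold changes 9 and 7. Over all tested, called or not, at least 2-fold changes numbered 718 higher in A and 519 higher in B. At least 4-fold there were 104 and 116, and at least 8-fold 30 and 46. At 4-fold and 8-fold the counts over all tested were thus not higher for A. Some of these uncalled changes were fitted to levels near 0 CPM in both sections, with a large SE. For the 2582 transcripts under 1 CPM the median SE of the log2 change was 0.62. The counts over all tested were not filtered by level or SE, so no direction of the larger changes is drawn from them. Among called transcripts more were higher in A by number, 49 of 772 against 33 of 214 and 9 of 772 against 7 of 214. As a part of each set, these changes were more frequent among those higher in B. The median fitted log2 change was 0.892 for the 772 and -1.19 for the 214. When the test asked for a change larger than 2-fold, 42 transcripts passed as higher in A (0.144% of those tested) and 15 as higher in B (0.0515%, glmTreat in edgeR with Benjamini-Hochberg adjustment). The 42 were 2.72 to 418 times as high in A by mean CPM, with a median of 4. Their median level in A was 103 CPM (13.4 to 892). The 15 were 3.62 to 11.5 times as high in B, at a median of 10.3 CPM (1.57 to 300). The next after trinitytrinLocGG_86527c0g1t1 by fitted change stood at 9.32, 23.3 and 15.9 CPM in A of eggs 10, 18 and 20, against 1.33, 1.4 and 1.41 CPM in B. The third stood at 33.2, 72.4 and 80.4 CPM against 5.02, 6.61 and 7.74.

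The number past the 2-fold test moved with the libraries used. For those higher in A it was 107 without section A of egg 10 and 87 without egg 10 altogether, against 10 without egg 18 and 9 without egg 20. Leaving out section A of egg 18 or 20 gave 17 and 22, and leaving out section B of egg 10, 18 or 20 gave 23, 18 and 27. It was 83 in a fit on the 6 libraries of A and B alone. For those higher in B it was 5 without egg 18 and 9 without its section B. With no egg term both counts were 8. With the spike-in the first was 24, and with the deposited factor the counts were 17 and 28.

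Egg 10 had the smallest step at its animal cap. For the 772 transcripts higher in A, the median log2 change was 0.68 in egg 10, 1.00 in egg 18 and 0.93 in egg 20. For the 42 past the 2-fold test these medians were 1.55, 2.25 and 2.10, and 41 of the 42 had their lowest level in A in egg 10, against 39.4% of all tested. The level in B was lowest in egg 10 for 20 of the 42 (47.6%, against 36.9% of all tested). The 214 transcripts higher in B did not share this: their medians were -1.07, -0.99 and -0.90, and the change was smallest in egg 10 for 50, in egg 18 for 74 and in egg 20 for 90. Of the 15 past the 2-fold test and higher in B, 11 had their smallest change in egg 20. Section A of egg 10 held 11069070 counts, close to the 11090824 of egg 20. Whether the cut lay at the same height in each egg was not tested.

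**Figure D4:**
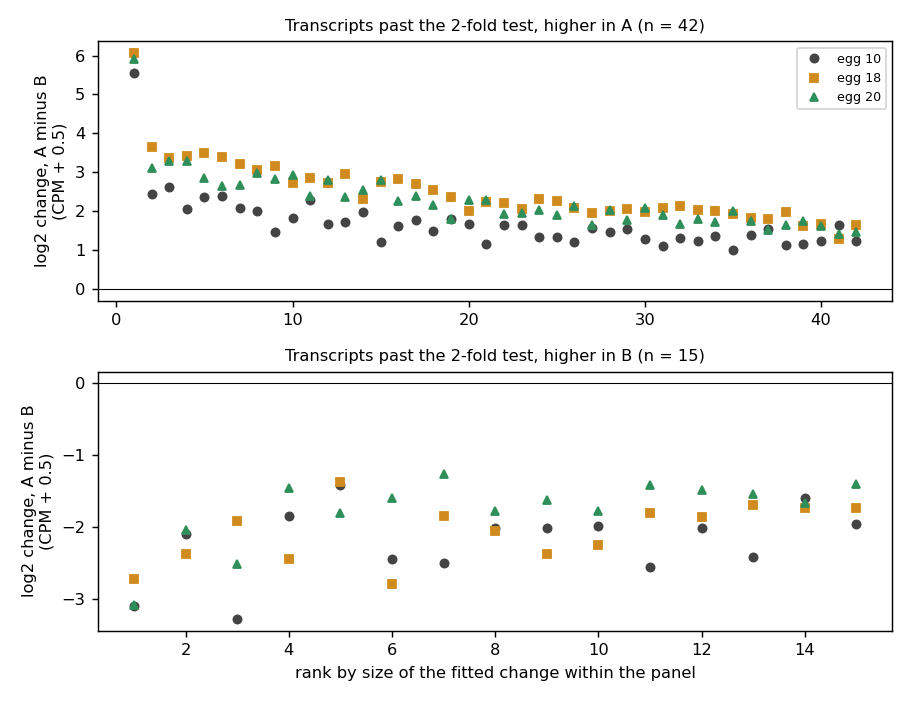
Each column is 1 transcript past the 2-fold test, ordered by the size of its fitted change, and its 3 symbols give the log2 change, A minus B, in eggs 10, 18 and 20 (CPM plus 0.5). In the upper panel of 42 the symbols of egg 10 are the smallest for 39 transcripts; in the lower panel of 15 the smallest change is in egg 20 for 11 transcripts, in egg 18 for 3 and in egg 10 for 1.

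The step was also read in an egg that had no part in the choice. Transcripts were called on 2 eggs at a time and looked up in the egg left out. The 347 called higher in A without egg 18 were higher in A in that egg in 98.6% of cases, and the 307 called without egg 20 in 98.7%, where 48.2% and 49.8% of all tested were. Egg 10 showed the direction for 776 of the 864 called without it (89.8%, against 50.7% of all tested), with a median of 0.55 in place of the 0.96 fitted in the other eggs. In egg 18 and egg 20 the left-out medians were 1.21 and 1.15, against 1.06 and 1.12 fitted in the other eggs. For transcripts called higher in B, the left-out egg showed the direction for 172 of 181 (egg 10), 110 of 111 (egg 18) and 109 of 112 (egg 20), where 48.5%, 51% and 49.4% of all tested were higher in B. Their median log2 change in the left-out egg was -0.83, -0.99 and -0.92, against -1.17, -1.41 and -1.50 fitted in the other eggs. Medians within an egg use CPM plus 0.5 and fitted values do not, so the 2 are unlike measures. For the 214 called on all 3 eggs, the fitted median was -1.19 and the medians within eggs -1.07, -0.99 and -0.90. Over all 29102 transcripts the log2 changes of 2 eggs had a Pearson r of 0.242 (eggs 10 and 18), 0.225 (10 and 20) and 0.327 (18 and 20). These r are across transcripts, which are not independent replicates. Over the 9256 with at least 20 CPM they were 0.503, 0.47 and 0.75.

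Along the rest of the axis the 2 sets behaved differently. On the TMM scale, the 772 transcripts higher in A fell at once and then levelled off. Their median log2 level relative to A was -0.87 ± 0.17 in B and -1.30 ± 0.20 in C (SD, n = 3). It was -1.46 ± 0.22 in D and -1.48 ± 0.25 in E. For the 718 of them that were also higher in A than in E, a median of 72.6% of the fall in CPM from A to E had been reached in B (quartiles 62.1% and 84.5%). The 214 transcripts higher in B rose most beyond B. Relative to A their median was 0.99 ± 0.09 in B and 2.53 ± 0.16 in C, and it reached 2.93 ± 0.09 in D and 3.05 ± 0.12 in E. A median of 12.9% of the rise in CPM from A to E had been reached in B for the 210 that were higher in E than in A. Both percentages are on the CPM scale, where equal log2 steps put most of a fall early and most of a rise late. They are therefore not comparable between the 2 sets. In log2, the medians in B had reached -0.87 of -1.48 for the 772 and 0.99 of 3.05 for the 214. The sets were chosen on the step from A to B, which makes that step large in them. Levels along the axis were read with TMM only, and the levelling off beyond C depends on that scaling. With TMM, 93 of the 772 higher in A were also called higher in C than in E. These were 73 of 285 with the spike-in and 395 of 531 with the deposited factor. Over all tested transcripts the medians, averaged over the 3 eggs, stayed between -0.01 and 0.01. TMM sets the bulk of transcripts equal, so these values near 0 are built in and are no independent baseline.

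**Figure D5:**
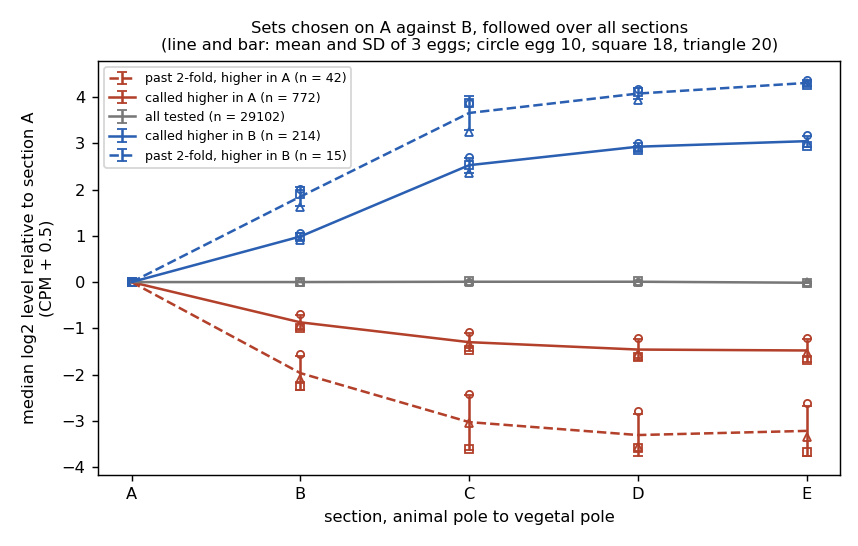
The vertical axis gives the median log2 level of a set relative to section A of the same egg (CPM plus 0.5) and the horizontal axis the section; lines and bars are the mean and SD of 3 eggs and symbols the single eggs. The set called higher in A is at -0.87 in B and -1.48 in E, while the set called higher in B is at 0.99 in B and 3.05 in E.

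Sections C, which adjoins B, and E, at the vegetal pole, share no library with A or B but come from the same eggs. Their contrast was read in the same fit over 15 libraries, with the same spread per transcript. Calls between A and B favour transcripts with a small spread, which may then be called more readily between C and E. The percentages of all tested are not matched for spread or level, and a matched base was not tested. Of the 214 higher in B, 104 were called higher in E than in C (48.6%, where 6.09% of all tested were). Only 4 of them were called higher in C (1.87%, against 3.95%). Of the 772 higher in A, 93 were called higher in C than in E (12%, against 3.95% of all tested) and 49 higher in E (6.35%, against 6.09%), while 630 were not called. The 104 of 214 became 36 of 111 and 36 of 112 on leaving out egg 18 or 20. They became 69 of 159 and 61 of 139 on leaving out B of egg 10 or of egg 20. With no egg term they were 27 of 92, with the spike-in 47 of 241 and with the deposited factor 171 of 5258. The 93 of 772 became 36 of 347 and 18 of 307 on leaving out egg 18 or 20. Leaving out A of egg 10 gave 228 of 1140, and leaving out B of egg 20 gave 58 of 499. With no egg term they were 6 of 299, and with the deposited factor 395 of 531. The 49 of 772 became 14 of 347 and 11 of 307 on leaving out egg 18 or 20. Leaving out A of egg 20 gave 29 of 514, and leaving out B of egg 18 gave 31 of 502. They were 12 of 299 with no egg term, 6 of 285 with the spike-in and 6 of 531 with the deposited factor.

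Set against the mean of C, D and E, section B was still higher for 518 of the 772 (67.1%, against 13.3% of all tested). It did not differ past the threshold for 215, of which 184 had a 95% interval within 2-fold either way. It was lower for 39 (5.05%, against 14.6%). These 39 had a trough in B: 37 of them were also called higher in E than in B, and 19 higher in E than in A, while 0 were called higher in A than in E. In them A was a median of 1.55 times and E 2.03 times the level of B. Of the 214 higher in B, 187 were lower in B than in C, D and E (87.4%, against 14.6% of all tested). These contrasts share the B libraries and the spread per transcript with the choice of transcripts. The percentages of all tested are again not matched for spread or level. The 518 of 772 became 237 of 347 and 224 of 307 on leaving out egg 18 or 20. They became 344 of 491 on leaving out A of egg 18. Leaving out B of egg 10, 18 or 20 gave 320 of 535, 321 of 502 and 324 of 499. With no egg term they were 196 of 299, and with the spike-in 247 of 285. The 39 of 772 became 10 of 347 and 7 of 307 on leaving out egg 18 or 20. Leaving out A of egg 10, 18 or 20 gave 67 of 1140, 22 of 491 and 16 of 514. Leaving out B of the same eggs gave 21 of 535, 23 of 502 and 19 of 499. The 39 became 12 of 299 with no egg term and 24 of 626 with total counts. With the spike-in they were 13 of 285, and with the deposited factor 11 of 531. The 187 of 214 became 95 of 111 and 98 of 112 on leaving out egg 18 or 20. They became 123 of 139 on leaving out B of egg 20 and 85 of 92 with no egg term. With the deposited factor they were 538 of 5258, a far smaller part of the calls higher in B.

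Section A was called above each of B, C, D and E for 710 of the 772 (2.44% of all tested), in 4 contrasts that share the A libraries, and for 42 of the 42 past the 2-fold test. The 710 of 772 became 321 of 347 and 292 of 307 on leaving out egg 18 or 20. They became 448 of 491 on leaving out A of egg 18. Leaving out B of egg 18 or 20 gave 470 of 502 and 472 of 499. With no egg term they were 278 of 299, and with the spike-in 264 of 285.

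Presence and absence separated the sections hardly at all at this depth. With at least 10 counts in each library of a section and 0 in each library of the other, 1 transcript was found in A only and 0 in B only, where 23443 and 23504 transcripts reached 10 counts in the 3 libraries of A and B. A count of 0 allows up to 3 counts, which is 0.248 to 0.422 CPM in these libraries. The 1 transcript had 20, 11 and 19 counts in A and 0 in B, but 9 and 10 counts in C and D of egg 18, so it was not confined to A. Allowing up to 3 counts in B brought 3 transcripts, among them trinitytrinLocGG_86527c0g1t1. With a minimum of 5 counts, 1 was found in A only and 3 in B only, and with 20 counts 0 in either. Intervals and floors cover counting error only, since reads carry no molecular identifiers.

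Within sections A and B, transcripts higher in A stood at higher levels than those higher in B. The median level in the higher section was 54.6 CPM for the 772 and 10.1 CPM for the 214. All tested had a median of 7.53 CPM for the mean of A and B, which is not a level in the higher section. The 214 took a larger share of the counts in E (2.77%) than in B (0.689%), so as a set their share was not highest in B. A summed share does not give the level of each transcript. Against the mean of C, D and E, B was lower for 187, higher for 1 and not called for 26. The share called higher in A rose with level, from 0.155% of the 2582 transcripts under 1 CPM to 2.21% of the 7691 from 5 to 20 CPM and 8.95% of the 2335 from 100 to 1000 CPM. The share called higher in B was 0.62%, 0.949% and 0.3% in the same ranges. The median standard error of the log2 change fell from 0.62 to 0.19 and 0.09 over these ranges, so smaller changes could pass the threshold at higher levels. Whether this underlies the rise in calls higher in A was not tested. Of the 100 most abundant transcripts, 10 were higher in A and 0 higher in B, close to the 8.95% and 0.3% from 100 to 1000 CPM. Over all tested the shares were 2.65% and 0.735%.

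The 772 transcripts made up 7.77, 9.24 and 9.44% of the counts of section A in eggs 10, 18 and 20, and 5.06, 4.92 and 5.43% of section B. In C, D and E their share was 3.71 ± 0.22%, 3.34 ± 0.252% and 3.27 ± 0.143% (SD, n = 3). The 214 took 0.379 ± 0.0216% of A, 0.689 ± 0.0354% of B, 1.88 ± 0.199% of C, 2.45 ± 0.131% of D and 2.77 ± 0.0861% of E. No test was run on these shares, since the calls define the sets.

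Transcripts that the assembler placed together shared a direction where called. The 986 calls came from 978 assembled genes in 959 components, and the 24 components with at least 2 calls held 51 of them, with 0 components called in both directions. In each of 3 components 3 transcripts were called, all higher in A. In one of these they stood at 62.7, 63.5 and 322 CPM in A, at 7.80, 9.33 and 46.3 CPM in B and at 0.299, 0.604 and 2.39 CPM in D. Transcripts of a component share sequence, so reads may have been split between them and their changes are not independent. Calls higher in A made up 2.87% of the de novo transcripts (DN in the ID) and 2.24% of the genome-guided ones (GG). Calls higher in B made up 0.658% and 0.88%.

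Transcripts of 1 assembled gene rarely differed in their balance between A and B. Among 1235 transcripts of 601 assembled genes with at least 2 tested, 3 in 2 genes were called (0.243%), and 41 had an unadjusted p under 0.05 (diffSpliceDGE in edgeR, Benjamini-Hochberg adjusted). In the first gene, transcript 6 stood at 225, 323 and 327 CPM in A and 46, 43.9 and 61.8 CPM in B of eggs 10, 18 and 20, while transcript 1 stood at 186, 174 and 152 CPM in A and 118, 96.7 and 108 CPM in B. Both were higher in A, with log2 changes of 2.55 ± 0.18 and 0.67 ± 0.09 (SE), but transcript 6 made up 62.7 ± 7.05% of the pair in A and 31.8 ± 4.2% in B (SD, n = 3; adjusted p 0.0017, diffSpliceDGE in edgeR). Its share went on to 16.5 ± 1.09% in C and 14.8 ± 1.77% in D. In the second gene, transcript 1 was higher in A by a log2 change of 1.10 ± 0.12 (SE), and transcript 2, the one called for balance (adjusted p 0.0149, diffSpliceDGE in edgeR), had -0.07 ± 0.13. Transcript 2 made up 31.0 ± 6.8% of the pair in A and 50.1 ± 7.23% in B. Transcript 1, the other of the pair, was not called for balance (adjusted p 0.236, diffSpliceDGE in edgeR). With egg 18 or egg 20 left out, or with the spike-in, 0 transcripts were called for balance, and 1 was called with A of egg 20 left out or with no egg term.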

How the data were processed

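Sections A and B of 3 sterlet eggs were compared as egg RNA along the animal-vegetal axis, with sections C, D and E in the same fit. Per library the authors deposited whole-number counts per assembled transcript and a normalized signal, the same counts divided by 1 number per library (where a transcript had more than 50 counts, the ratio varied by no more than 9.8e-10 of itself). That divisor is the deposited factor. Per the submitters' processing notes, kallisto, DESeq2, STAR 2.5.2b and Trimmomatic were used, in roles they do not state. The genome build was not given. The deposited signal served only to obtain the factor. The spike-in line, 0.0115 to 0.0165% of the counts of A and B, stayed out of tests.

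Counts were filtered with filterByExpr, scaled with TMM and fitted in edgeR 4.0.16 (R 4.3.3) with section and egg as additive terms over 15 libraries (glmQLFit, glmQLFTest, 8 residual degrees of freedom), and p-values were Benjamini-Hochberg adjusted over all tested transcripts. A difference beyond 2-fold used glmTreat with a log2 threshold of 1, and balance within an assembled gene used diffSpliceDGE. Each SE of a log2 change is its size divided by the square root of the F statistic of the quasi-likelihood test. DESeq2 1.42.0 was an alternative. The functions were tested on simulated data. The egg is a block because A and B of a number are parts of 1 egg; their deviations from the section means correlated at 0.696, 0.51 and 0.4, against -0.526 to 0.204 between eggs. Chi-square over degrees of freedom was 4.77 to 15.5 between libraries of 1 section, beyond sampling noise. Per direction, the named transcripts are the one with the largest fitted change and the one with the highest level among those at least 2-fold different, each called, with 1 direction in 3 of 3 eggs and at least 5 CPM. Directions within eggs and set medians used log2 of CPM plus 0.5. The comparison, tests and rules were chosen with earlier results of these data known, and the left-out-egg reading was added later. No sequence was used.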

Additional observations from a re-analysis of the deposited data

Results flagged for a closer look

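Data outside the comparison held a signal above the limit of 3 that a count of 0 allows: the spike-in line had 758 to 1825 counts in the 6 libraries of sections A and B. It stood at 138 ± 24.7 TMM-scaled CPM in A and 119 ± 10.5 in B (SD, n = 3). Relative to the library size after TMM, and set to a mean of 1 over 15 libraries, the deposited factor was 0.905 in A and 0.739 in B, with an SD of 0.00614 and 0.00364 over the 3 eggs. What this number stands for was not tested.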

How the results depend on the processing

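Leaving out an egg or a library of A or B gave 419 to 1385 calls, 307 to 1140 higher in A and 111 to 245 higher in B. Past 2-fold it gave 9 to 107 higher in A and 5 to 14 higher in B, and A was above every other section for 292 to 1037. Of those higher in A, 18 to 228 were higher in C than in E, 11 to 72 higher in E than in C, 224 to 746 fell beyond B and 7 to 67 rose. Of those higher in B, 36 to 111 were higher in E than in C and 95 to 185 rose beyond B. Balance within a gene was called for 0 to 3 transcripts. Counts within a direction are out of the calls of the same setting, and those totals differ between settings.

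Without the replicate block by egg, the counts were 391 calls (299 higher in A, 92 higher in B), 8 and 8 past 2-fold, and 278 with A above every section. Of those higher in A, 6 were higher in C, 12 higher in E, 196 fell beyond B and 12 rose. Of those higher in B, 27 were higher in E and 85 rose beyond B. Balance within a gene was called for 1. With the spike-in there were 526 calls, 285 higher in A, 24 past 2-fold higher in A and 264 with A above every section. There, 6 of the 285 higher in A were higher in E, 247 fell beyond B and 13 rose. Of the 241 higher in B, 47 were higher in E, and balance was called for 0. With the deposited factor there were 5789 calls, 531 higher in A and 5258 higher in B, with 17 and 28 past 2-fold. Of the 531, 395 were higher in C than in E, 6 were higher in E and 11 rose beyond B. Of the 5258, 171 were higher in E than in C and 538 rose beyond B. With total counts 24 of the 626 higher in A rose beyond B. The 6 libraries of A and B alone gave 83 past 2-fold higher in A, where sections C to E no longer enter the spread. Detection in A only gave 0 transcripts at 20 counts and 3 with up to 3 counts in B, and detection in B only 3 at 5 counts. Without the 10 most abundant transcripts in the totals, the sets held 5.45% (higher in A, section B), 0.403% and 0.731% (higher in B, sections A and B). Elsewhere the cause was not tested.

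Size factors from DESeq2, either low-count filter, the robust variance estimate, the DESeq2 test (1030 calls) and sums per assembled gene moved no count of calls by over 1.5 times. For the 4 named transcripts, 75 values under other settings had the same direction and call, 1 (DESeq2, trinitytrinLocGG_86527c0g1t1) was no longer called and 0 reversed.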
